A study of Homo sapiens with 6 samples.

Results

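The BMP and activin signalling genes BMP2, BMP4, INHBA, FST, BAMBI, SMAD6, ID1, ID2, ID3 and BMPR1A were followed in MCF10A cells, a non-tumorigenic line of human breast epithelium, after stable transfection with an shRNA against FRY. Every probe set that the array's annotation ties to 1 of these symbols alone was taken, which gave 18 probe sets for 9 of the 10 genes, out of 54613 probe sets other than controls. BMPR1A, a type I receptor for bone morphogenetic proteins (BMPs), is not analysed here. The study set 3 samples of a clone carrying FRY-targeting shRNA (10A-shFRY, here shFRY) against 3 samples of a clone carrying non-targeting shRNA (10A-CV, here control). All 6 came from puromycin-selected MCF10A cells grown as monolayers with hydrocortisone (5 ug/ml), insulin (10 ug/ml), EGF (20 ng/ml) and bovine pituitary extract. Each construct was represented by 1 clone, sampled at passages that varied, so p-values measure only the spread between such samples, and clone and shRNA cannot be told apart. FRY, a large microtubule-associated protein, binds NDR kinases. Per the labels' protocols the shFRY clone was picked for FRY about 60% below the level of MCF10A cells.

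BMPs and activins are secreted dimers of the transforming growth factor beta superfamily. They bring together type I and type II receptor kinases on the cell surface. BMP receptors phosphorylate SMAD1, SMAD5 and SMAD9, activin receptors phosphorylate SMAD2 and SMAD3, and both sets of SMADs enter the nucleus with SMAD4. Signalling is held in check outside the cell by binding proteins such as follistatin and noggin, at the receptor by BAMBI, and inside the cell by SMAD6 and SMAD7. The ID genes are among the best known direct targets of the BMP branch.

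FRY was lower in shFRY at each of its 4 probe sets, with log2 differences of -0.75 to -0.32, and 1 of them, 204072_s_at, passed the threshold (limma adjusted p = 0.0223). Each of the 9 measured markers of MCF10A-type epithelium lay above the median of all log2 signals (3.04) in every sample, although 6 of them were called higher in shFRY, led by KRT14 (2.92) and LAMB3 (1.71), and KRT8 (-0.93) and KRT18 (-0.37) lower. Their summed list had a log2 level of 14.37 to 14.52 in shFRY against 13.71 to 13.74 in control. Of the 8 fibroblast markers, COL3A1, DCN and LUM were lower in shFRY and the other 5 did not pass, and the summed list had a log2 level of 6.21 to 6.25 in shFRY against 7.81 to 8.11 in control. Of 5 endothelial markers TEK was higher (1.85) and KDR lower (-2.45), with a summed log2 level of 7.49 to 7.80 in shFRY against 7.96 to 8.03 in control. PTPRC was lower (-1.06) among 4 blood cell markers, whose summed log2 level was 3.88 to 4.10 in shFRY against 4.23 to 4.62 in control, and none of the 4 lay above the median in every sample. Beta-actin control probe sets, which show how far labelled RNA reaches from the 3' end, differed between their 3' and 5' ends (3' minus 5') by 2.87 ± 0.03 in shFRY and 2.52 ± 0.19 in control (log2, SD, n = 3 each). The two-sided p of an exact permutation test was 0.1, which 3 against 3 samples cannot go below. The GAPDH control probe sets gave -0.07 ± 0.03 in shFRY and -0.09 ± 0.01 in control (SD, n = 3 each; exact permutation p = 0.4). The part of these markers in the differences below was not tested, and values with beta-actin as a covariate are given with many of the results. In bulk RNA, fewer cells with a transcript and less of it per cell cannot be told apart.

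Of the 18 probe sets, 11 passed in either direction, against 23.1% of all 54613. In shFRY 10 passed as higher and 1 as lower at a limma adjusted p of 0.05, against a background of 10.9% higher and 12.2% lower. BMP2, INHBA, FST and BAMBI rose at each of their 9 probe sets, by 5.82-fold to 49.9-fold, and ID3 rose by 1.87-fold. BMP4 fell 2.34-fold. The probe sets of ID1, ID2 and SMAD6 did not pass. Of the 18 probe sets, 9 passed with a rise of at least 2-fold, against 2.90% of all probe sets. With a fall of at least 2-fold 1 of the 18 passed, against 3.38% of all (6.28% in either direction). The groups did not overlap at 13 of the 18 probe sets, against 39.2% of all probe sets. The 4 strongest members stood near the top of the 19775 genes ranked by difference, FST being 12th, BMP2 16th, BAMBI 38th and INHBA 67th from the highest, while BMP4 was 519th from the lowest.

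**Figure D1:**
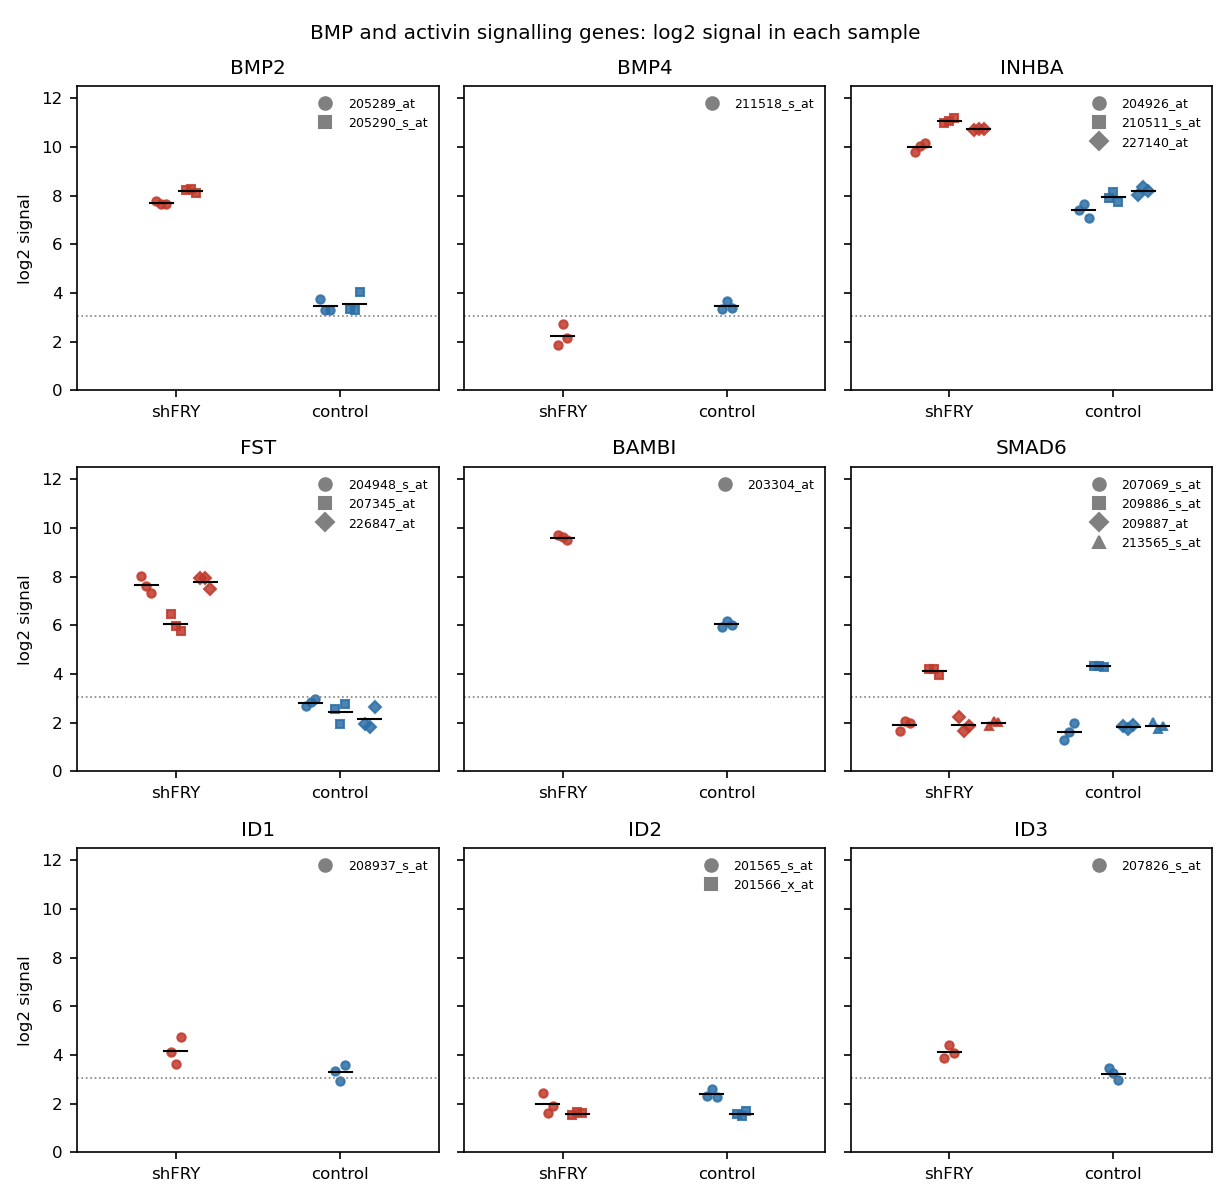
Log2 signal of each member probe set (vertical axis) in the 3 shFRY samples (red, left) and the 3 control samples (blue, right). Each point is a sample, marker shapes stand for probe sets, black bars are means, and the dotted line is the median of all values (3.04). BMP2, INHBA, FST and BAMBI lie in separate ranges in shFRY and control, whereas the samples of SMAD6 and ID2 overlap or lie within a gap of 0.07.

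The ligand gene BMP2 was close to the array's median in control cells and far above it in shFRY cells. BMP2 encodes a ligand best known for inducing bone, which signals through BMP type I receptors to SMAD1, SMAD5 and SMAD9. At probe set 205290_s_at its log2 signal was 8.23, 8.29 and 8.09 in shFRY, against 3.36, 3.31 and 4.03 in control. At 205289_at it was 7.76, 7.65 and 7.65 in shFRY, against 3.77, 3.31 and 3.29 in control. The groups were far apart at both, with gaps of 4.06 and 3.87 between the nearest samples. The rise was 24.9-fold at 205290_s_at (95% confidence interval 18.3 to 33.8, limma adjusted p = 3.72e-06). At 205289_at it was 18.7-fold (14.8 to 23.7, limma adjusted p = 1.75e-06). With the beta-actin covariate the log2 differences were 3.98 and 4.67 (limma adjusted p = 0.00122 and 0.000602).

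BMP4, the close relative of BMP2 with the same receptors, went the other way at its 1 probe set, 211518_s_at. Its log2 signal was 1.85, 2.72 and 2.16 in shFRY, against 3.34, 3.67 and 3.39 in control. All 3 shFRY samples lay below the median of all values and all 3 control samples above it, with a gap of 0.62 between the groups. The log2 difference was -1.23 (SE 0.21, limma adjusted p = 0.00415). It did not pass with the beta-actin covariate (-1.32, limma adjusted p = 0.181). BMP2 and BMP4 therefore passed in opposite directions in the same samples.

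INHBA was already bright in control cells and rose further. It encodes the beta A subunit, whose homodimer is activin A, a ligand of the SMAD2 and SMAD3 branch, and which also forms inhibin A with the alpha subunit. At 210511_s_at the log2 signal was 10.98, 11.08 and 11.18 in shFRY, against 7.90, 8.13 and 7.74 in control. At 204926_at it was 9.81, 10.02 and 10.15 in shFRY, against 7.42, 7.66 and 7.10 in control. At 227140_at it was 10.69, 10.74 and 10.72 in shFRY, against 8.01, 8.34 and 8.18 in control. The groups were separate at all 3 probe sets, with gaps of 2.14 to 2.85, and control sample 2 was the brightest control at each. The rises were 8.90-fold (95% confidence interval 7.24 to 10.9, limma adjusted p = 3.64e-06), 6.07-fold (4.68 to 7.88, limma adjusted p = 2.90e-05) and 5.82-fold (4.83 to 6.998, limma adjusted p = 5.94e-06). The beta-actin covariate gave log2 differences of 3.34, 2.94 and 2.38, with limma adjusted p of 0.00212, 0.00579 and 0.00452.

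FST, which encodes follistatin, the secreted protein that binds activins almost irreversibly and some BMPs more weakly, had the largest difference of the members. At 226847_at its log2 signal was 7.94, 7.93 and 7.48 in shFRY, against 1.96, 1.81 and 2.64 in control. At 204948_s_at it was 8.03, 7.61 and 7.34 in shFRY, against 2.67, 2.85 and 2.96 in control. At 207345_at it was 6.45, 5.96 and 5.77 in shFRY, against 2.56, 1.96 and 2.79 in control. Every control value lay below the median of all values and every shFRY value well above it, and shFRY sample 1 was the highest and sample 3 the lowest at each probe set. The rises were 49.9-fold (95% confidence interval 34.8 to 71.7, limma adjusted p = 3.25e-06), 28.5-fold (21.5 to 37.8, limma adjusted p = 2.45e-06) and 12.3-fold (8.41 to 18.1, limma adjusted p = 3.70e-05). The size thus depended on the probe set, the intervals at 226847_at and 207345_at being apart. The log2 differences with the beta-actin covariate were 4.93, 4.50 and 3.35 (limma adjusted p = 0.00142, 0.00181 and 0.0179). The ligand gene INHBA and the gene of its binding protein FST were thus both higher in all 3 shFRY samples.

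BAMBI encodes a transmembrane protein that resembles a type I receptor but lacks the kinase, and so blocks signalling by activin, BMP and TGF-beta receptors. Its 1 probe set, 203304_at, had a log2 signal of 9.69, 9.61 and 9.49 in shFRY, against 5.92, 6.18 and 6.02 in control. The samples of each group lay within 0.26 of each other or less, and the gap between groups was 3.31. The rise was 11.8-fold (95% confidence interval 9.80 to 14.2, limma adjusted p = 1.30e-06), and the log2 difference was 3.56, or 3.44 with the beta-actin covariate (limma adjusted p = 0.00122).

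SMAD6, the inhibitory SMAD that acts mainly on the BMP branch and is itself a BMP target, did not pass at any of its 4 probe sets, by limma or at an unadjusted limma p of 0.05. At the brightest, 209886_s_at, the log2 signal was 4.22, 4.22 and 3.98 in shFRY, against 4.33, 4.34 and 4.29 in control. The shFRY samples were all lower there, by a gap of 0.07. The log2 difference was -0.18 (95% confidence interval -0.43 to 0.08, limma adjusted p = 0.299). At 207069_s_at, 209887_at and 213565_s_at the signals, 1.29 to 2.22, were below the median of all values in every sample and the groups overlapped, with differences of 0.08 to 0.27. Since RMA compresses differences of dim probe sets, those at these 3 may be too small.

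**Figure D2:**
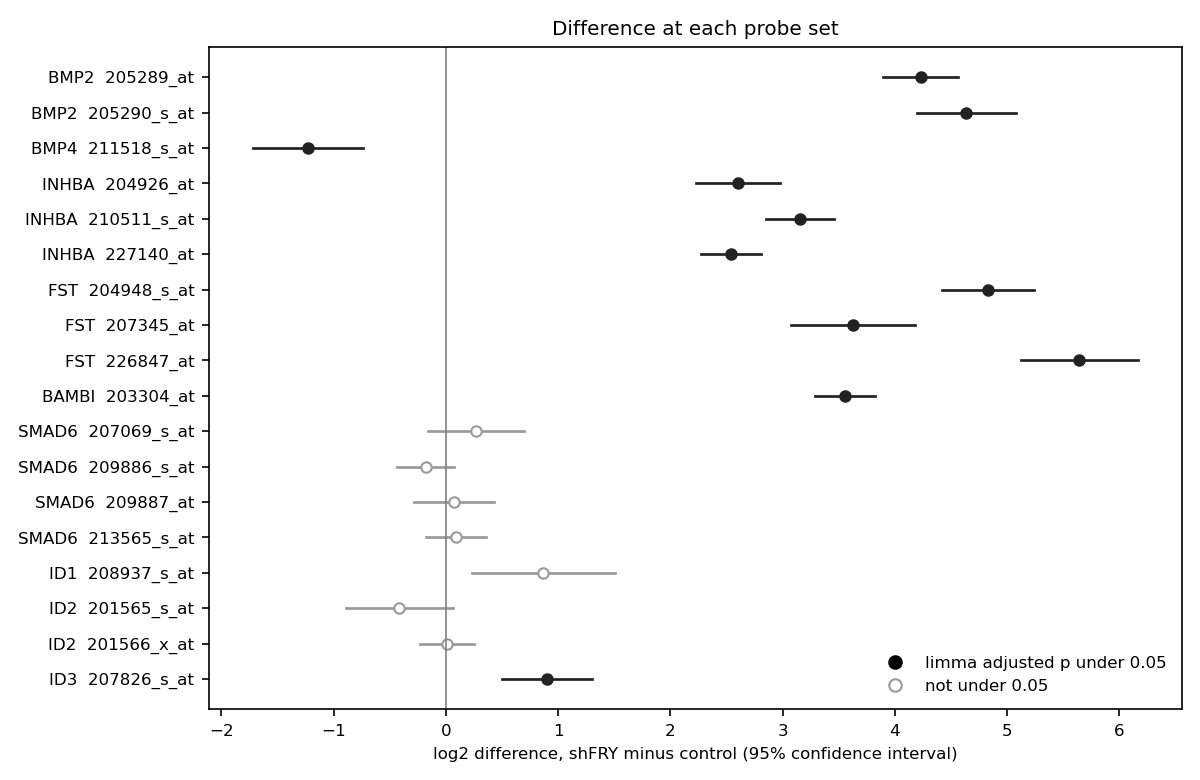
Log2 difference of shFRY minus control (horizontal axis) at each of the 18 member probe sets (rows), with the limma 95% confidence interval; filled points have an adjusted p under 0.05. The probe sets of BMP2, INHBA, FST and BAMBI lie between 2.54 and 5.64, BMP4 lies at -1.23, and the intervals of SMAD6 and ID2 span 0.

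The ID genes encode helix-loop-helix proteins that have no DNA-binding region and keep partner factors from DNA, and they are used as readouts of BMP signalling. ID1 at 208937_s_at had a log2 signal of 4.10, 3.61 and 4.74 in shFRY, against 3.34, 2.94 and 3.58 in control. All shFRY samples were above all control samples, but the gap was only 0.03. The log2 difference was 0.87 (SE 0.28), which did not pass among all probe sets (limma adjusted p = 0.0561). With 1 probe set per gene the adjusted p was 0.0473 in limma over 19775 genes, so ID1 lies at the threshold. With the beta-actin covariate the log2 difference at 208937_s_at was 0.79 and did not pass (limma adjusted p = 0.559).

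ID3 at 207826_s_at had a log2 signal of 3.88, 4.42 and 4.09 in shFRY, against 3.45, 3.26 and 2.97 in control. The groups were separated by 0.43. ID3 rose by 1.87-fold (95% confidence interval 1.42 to 2.47, limma adjusted p = 0.00673), and with the beta-actin covariate the log2 difference of 1.32 did not pass (limma adjusted p = 0.0756).

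ID2 was dim at both of its probe sets, below the median of all values in every sample. At 201565_s_at the log2 signal was 2.45, 1.62 and 1.90 in shFRY, against 2.31, 2.62 and 2.28 in control. The groups overlapped through shFRY sample 1, and the log2 difference was -0.41 (95% confidence interval -0.89 to 0.06, limma adjusted p = 0.203). Without that sample it was -0.64 and passed (limma adjusted p = 0.0288). At 201566_x_at the difference was 0.01 (95% confidence interval -0.23 to 0.25). Of ID1, ID2 and ID3, only ID3 was thus called by probe set.

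The sequence just before the start of transcription was read for the members that rose most and for the ID genes, since these are ligand, inhibitor and target genes of 1 pathway, to show which known elements their promoters hold. BMP2 had no entry in the table used, and 8 of the 9 members did. The windows are the 250 bases upstream of the RefSeq start in GRCh38.p14, on the strand of the gene. Capitals mark the SMAD box GTCT, the GC-rich SMAD element GGCGCC and the AP-1 element TGANTCA, each searched on both strands; none of them contains another. The windows are INHBA at chr7:41703091-41703340 (minus strand), FST at chr5:53480379-53480628 (plus strand), BAMBI at chr10:28677271-28677520 (plus strand), ID1 at chr20:31605039-31605288 (plus strand), ID2 at chr2:8681806-8682055 (plus strand) and ID3 at chr1:23559502-23559751 (minus strand).
INHBA: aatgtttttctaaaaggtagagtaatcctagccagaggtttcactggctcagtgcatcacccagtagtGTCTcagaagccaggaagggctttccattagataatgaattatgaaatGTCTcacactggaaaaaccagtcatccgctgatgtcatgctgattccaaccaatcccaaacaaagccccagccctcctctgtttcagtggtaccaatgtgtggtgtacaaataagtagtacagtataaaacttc
FST: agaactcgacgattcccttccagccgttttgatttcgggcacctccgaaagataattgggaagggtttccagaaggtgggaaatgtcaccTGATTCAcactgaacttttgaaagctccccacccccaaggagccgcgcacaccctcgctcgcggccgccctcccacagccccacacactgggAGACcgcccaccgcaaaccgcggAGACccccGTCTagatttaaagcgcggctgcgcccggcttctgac
BAMBI: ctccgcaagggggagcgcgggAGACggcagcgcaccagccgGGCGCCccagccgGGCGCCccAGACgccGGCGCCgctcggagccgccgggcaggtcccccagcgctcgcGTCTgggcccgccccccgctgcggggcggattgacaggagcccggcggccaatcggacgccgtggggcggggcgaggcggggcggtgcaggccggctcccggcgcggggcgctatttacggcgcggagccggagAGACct
ID1: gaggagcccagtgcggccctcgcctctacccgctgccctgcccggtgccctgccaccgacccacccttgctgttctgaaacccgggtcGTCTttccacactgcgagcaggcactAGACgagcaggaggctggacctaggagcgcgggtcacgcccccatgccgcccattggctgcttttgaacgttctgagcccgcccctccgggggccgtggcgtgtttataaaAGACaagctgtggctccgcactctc
ID2: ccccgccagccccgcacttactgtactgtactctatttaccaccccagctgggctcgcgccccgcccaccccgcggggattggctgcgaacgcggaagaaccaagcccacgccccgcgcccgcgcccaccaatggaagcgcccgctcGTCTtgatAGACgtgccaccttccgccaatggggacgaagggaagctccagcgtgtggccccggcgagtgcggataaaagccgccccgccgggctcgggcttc
ID3: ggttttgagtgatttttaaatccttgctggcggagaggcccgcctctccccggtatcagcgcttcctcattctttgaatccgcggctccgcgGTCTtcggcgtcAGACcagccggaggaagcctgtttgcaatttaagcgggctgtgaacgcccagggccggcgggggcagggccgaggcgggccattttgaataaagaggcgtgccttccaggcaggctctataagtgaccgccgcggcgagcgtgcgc
BAMBI held 3 matches to GGCGCC and 4 to the SMAD box in a window of 81.2% G and C. FST held 1 match to TGANTCA, ending 154 bases before the start, and 3 SMAD boxes. The other 4 windows held SMAD boxes alone, 3 in ID1 and 2 each in INHBA, ID2 and ID3. Of 35116 such windows in the RefSeq table, 77.5% held a SMAD box, 16.4% held GGCGCC and 6.57% held TGANTCA, so a SMAD box is common and sets none of these genes apart. ID2, which did not pass, and ID3, which rose, each held 2. These are matches of letters and not measured binding sites.

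The other genes of the pathway were counted by role, with 1 probe set per gene. Of the 69 measured pathway genes that are not members, 16 rose (23.2%) and 9 fell (13.0%), against 13.7% and 16.0% of all 19775 genes (29.8% in either direction). Their median log2 difference was 0.18, against 0.03 for all genes. At least 2-fold changes were found for 5 that rose and 3 that fell, against 3.42% and 4.08% of all genes (7.50% in either direction). The groups did not overlap for 26 of the 69 genes that were higher and 9 that were lower, and overlapped for 34. Of all 19775 genes, 4321 were higher and 4426 lower without overlap (44.2% in either direction). In the same fit 6 of the 9 member genes rose and 1 fell; the members were chosen with earlier results of these data known, and the difference between the shares was not tested. With the beta-actin covariate 3 of the other pathway genes passed as higher and 3 as lower, while 1026 of all genes passed, against 5889 without it.

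**Figure D3:**
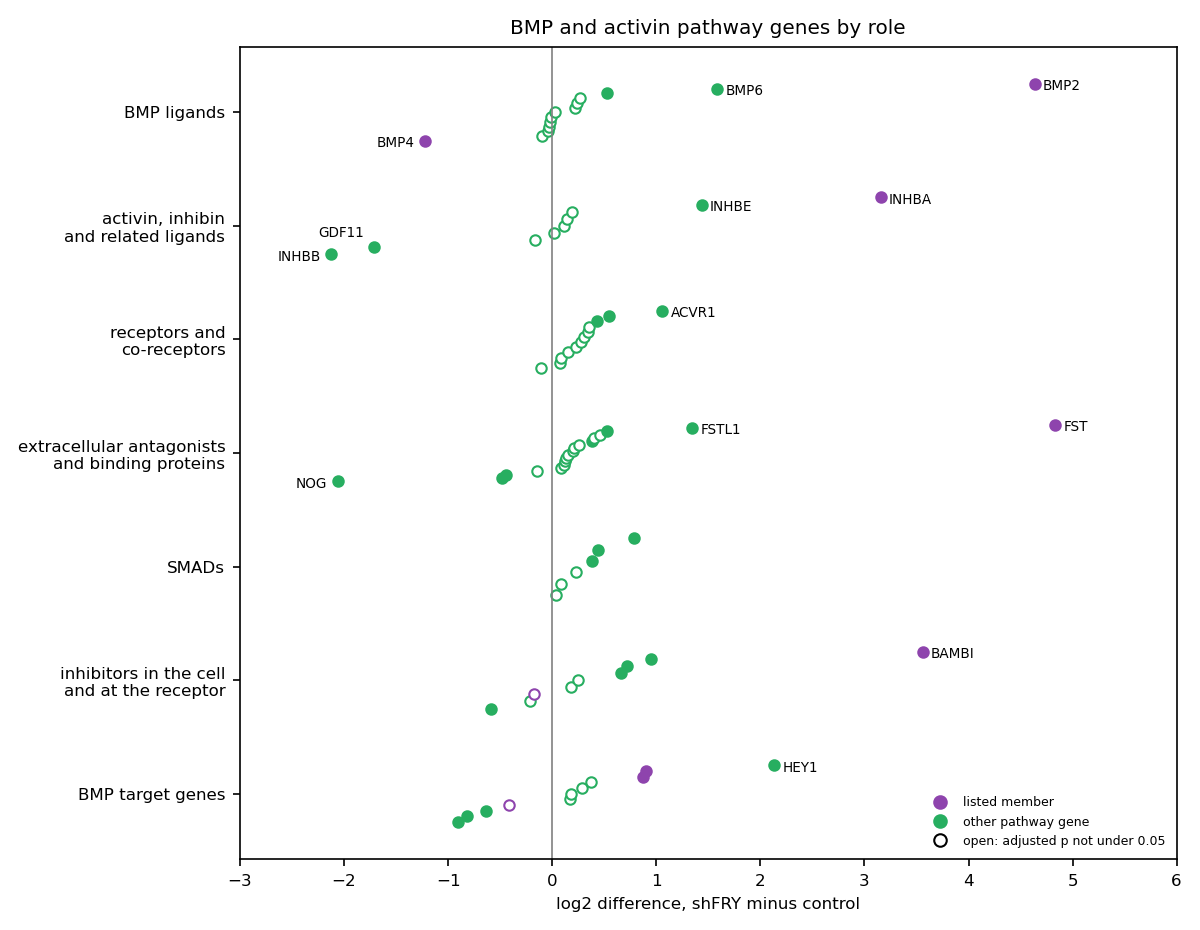
Log2 difference of shFRY minus control (horizontal axis) for each measured pathway gene, grouped by role (rows); purple points are the listed members, green points the other genes, and open points have a limma adjusted p that is not under 0.05. Genes called with at least 2-fold changes are named. Most other genes lie within 1 log2 unit of 0.

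Among the other ligand genes, BMP6, BMP7 and INHBE rose and INHBB and GDF11 fell. BMP6, a BMP known from iron control, had a log2 signal of 4.28, 4.51 and 4.31 in shFRY, against 2.97, 2.56 and 2.81 in control. It rose by 1.58 on the log2 scale (limma adjusted p = 9.21e-05), although its other 2 probe sets did not pass. BMP7, a ligand of kidney and epithelial development, rose by 0.53 (limma adjusted p = 0.00464). The other 9 BMP ligand genes did not pass, so 18.2% of the 11 rose, against 13.7% of all genes.

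INHBB, which encodes the beta B subunit of activin B, moved opposite to INHBA. Its log2 signal was 2.61, 3.18 and 4.09 in shFRY, against 5.59, 5.21 and 5.45 in control. The groups did not overlap, and the shFRY samples were spread more widely (SD 0.75 in shFRY and 0.19 in control). It fell by 2.13 on the log2 scale (limma adjusted p = 0.00174), and with the beta-actin covariate the difference of -1.83 did not pass (limma adjusted p = 0.177). INHBE, the beta E subunit made mainly in liver, had 3.68, 3.41 and 3.68 in shFRY, against 2.10, 2.30 and 2.06 in control, a rise of 1.44 (limma adjusted p = 9.21e-05). GDF11, an activin-like ligand, fell by 1.71 (limma adjusted p = 0.000278) at the probe set standing for it, and its other 4 probe sets, at -0.36 to -0.20, did not pass.

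Of the 12 measured receptor and co-receptor genes, 3 rose and none passed as lower, by limma or at an unadjusted limma p of 0.05. By limma adjusted p, 13.7% of all genes rose and 16.0% fell, and the difference from these shares was not tested. ACVR1, a type I receptor for BMPs, had a log2 signal of 7.0025, 6.65 and 6.37 in shFRY, against 5.69, 5.51 and 5.64 in control. It rose by 1.06 (limma adjusted p = 0.00171). BMPR1B, another BMP type I receptor, rose by 0.55 (limma adjusted p = 0.0177), and ACVR1B, the activin type I receptor, by 0.43 (limma adjusted p = 0.00969). BMPR1B missed the threshold without shFRY sample 1 or 3 or control sample 1 or 3, with limma adjusted p of 0.0524, 0.0507, 0.0644 and 0.0518. None of the 3 passed with the beta-actin covariate (0.134, 0.483 and 0.305).

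Noggin had the largest fall among the 17 other genes listed as extracellular antagonists and binding proteins. That list also holds the proteases BMP1 and TLL1. Of the 17, 3 rose (17.6%) and 3 fell (17.6%), near the 13.7% and 16.0% of all genes. NOG encodes a secreted protein that holds BMP2 and BMP4 away from their receptors. Its log2 signal was 3.91, 3.63 and 3.88 in shFRY, against 6.03, 5.78 and 5.79 in control. The groups were 1.87 apart, and NOG fell by 2.06 on the log2 scale, a fold of 4.17 (limma adjusted p = 1.74e-05), or by 1.81 with the beta-actin covariate (limma adjusted p = 0.00849). FSTL1, a secreted follistatin-like glycoprotein, had 7.65, 7.47 and 7.44 in shFRY, against 6.15, 6.03 and 6.33 in control, a rise of 1.35 (limma adjusted p = 0.000111). FSTL1 has 2 other probe sets, which did not pass. BMP1, a protease that cleaves the BMP antagonist chordin and procollagens, rose by 0.53 (limma adjusted p = 0.00324). Thus the activin-binding FST and the BMP-binding NOG passed in opposite directions.

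Of the 6 SMAD genes that carry or share the signal, 3 rose and none passed as lower, by limma or at an unadjusted limma p of 0.05. The shares of all genes by limma adjusted p were 13.7% higher and 16.0% lower. Whether so short a list departs from them was not tested. SMAD3, which serves activin and TGF-beta receptors, had a log2 signal of 8.95, 9.06 and 9.19 in shFRY, against 8.04, 8.38 and 8.42 in control. It rose by 0.79 (limma adjusted p = 0.00264), with 3 of its 4 probe sets called higher. SMAD9 (0.44, limma adjusted p = 0.0170) and SMAD2 (0.38, limma adjusted p = 0.0166) also passed, SMAD9 at 1 of 2 probe sets and SMAD2 at 1 of 6. SMAD9 was dim, with log2 signals of 1.63 to 2.32 at that probe set, below the median of all values (3.04) in every sample. SMAD2 missed the threshold without shFRY sample 2 or control sample 3 (limma adjusted p = 0.0533 and 0.0668), and SMAD9 without shFRY sample 1 or control sample 2 (0.0515 and 0.0650). With the beta-actin covariate the differences of SMAD3, SMAD9 and SMAD2 were 0.47, 0.51 and 0.47 and did not pass.

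Among the 7 intracellular inhibitors other than the members, 3 rose (42.9%) and 1 fell (14.3%), against 13.7% and 16.0% of all genes. The ubiquitin ligase gene SMURF2, whose product marks SMADs and receptors for breakdown, had a log2 signal of 9.33, 9.44 and 9.43 in shFRY, against 8.63, 8.69 and 8.73 in control. It rose by 0.72 (limma adjusted p = 0.000755) and was called higher at each of its 4 probe sets. Its relative SMURF1 rose by 0.95 (limma adjusted p = 0.000826), with 3 of 5 probe sets called higher and 1, 232665_x_at, called lower at -0.84. SKIL, a repressor that binds SMADs and is induced by activin and TGF-beta, rose by 0.66 (limma adjusted p = 0.00146) at 3 of 5 probe sets. With the beta-actin covariate none of these 3 passed (limma adjusted p = 0.107 to 0.121).

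The 8 other BMP target genes held 1 rise and 3 falls, where 13.7% of all genes rose and 16.0% fell. The difference from those shares was not tested. HEY1, a repressor that is also a Notch target, had a log2 signal of 6.31, 5.65 and 6.37 in shFRY, against 3.75, 4.52 and 3.66 in control. It rose by 2.13 (limma adjusted p = 0.000644), with both probe sets called higher, the other, 218839_at, by 1.33, and missed the threshold with the beta-actin covariate (2.31, limma adjusted p = 0.0618). ID4, the remaining ID gene, had 3.42, 3.93 and 3.77 in shFRY, against 4.72, 4.58 and 4.53 in control, a fall of 0.90 (limma adjusted p = 0.00212) that was seen at 2 of 5 probe sets and did not pass with the beta-actin covariate (limma adjusted p = 0.211). MSX2, a homeobox gene, fell by 0.82 (limma adjusted p = 0.0121) at 1 of 3 probe sets, and another probe set stood at 0.11 when those ending in _x_at and _s_at were left out. With the covariate MSX2 stood at -1.44 (limma adjusted p = 0.0321). Within the ID family, ID3 was therefore called higher and ID4 lower in the same samples.

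Several of these values rest on 1 probe set of a gene. Averaged over all its probe sets, each of the following still passed at a smaller size: BMP6 at 0.74, FSTL1 at 0.61, SMURF1 at 0.38, BMP1 at 0.34, BMP7 at 0.33, GDF11 at -0.59, ID4 at -0.45 and MSX2 at -0.37 on the log2 scale. ACVR1B at 0.23 and SMAD2 at 0.21 did not pass then (limma adjusted p = 0.0700 and 0.108). Among probe sets other than _x_at and _s_at, BMP7 was at 0.28 and did not pass (limma adjusted p = 0.225), nor did BMP1 at 0.57 (0.0683) or SMAD2 at 0.17 (0.374). BMP7 and BMP1 also missed the threshold with the beta-actin covariate, at 0.57 and 0.64 (limma adjusted p = 0.172 and 0.0992).

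For 4 members the genes with the most similar profile over the 6 samples were found as those with the smallest Euclidean distance between log2 values centred on each gene's mean. The nearest to BMP2 were S100A8, ITGB3 and PTX3, at distances of 0.45, 0.49 and 0.53 log2 units. The nearest to INHBA were FN1 (0.25), PLAU (0.28) and HTR7 (0.32). ERN1 (0.21), KDM7A (0.24) and SAMSN1 (0.36) were nearest to BAMBI. For ID1, whose samples were more spread, they were IL1R2 (0.41), TCEANC (0.46) and FIBIN (0.48). This measure is close to one of the group difference, since the groups set most of the spread over the 6 samples. The log2 differences of S100A8, ITGB3 and PTX3 were 4.69, 4.45 and 4.38, beside 4.64 for BMP2, and those of FN1, PLAU and HTR7 were 3.12, 3.001 and 3.08, beside 3.15 for INHBA.

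The differences of the members were followed through 12 or 13 alternative settings per probe set. The 9 probe sets of BMP2, INHBA, FST and BAMBI passed as higher in all 13. BMP4 passed as lower in 11 of 12 and ID3 as higher in 12 of 13, each missing only with the beta-actin covariate. ID1 passed in 5 of 13, with log2 differences of 0.58 to 1.14, and its value was lowest without shFRY sample 3 and highest without shFRY sample 2.

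**Figure D4:**
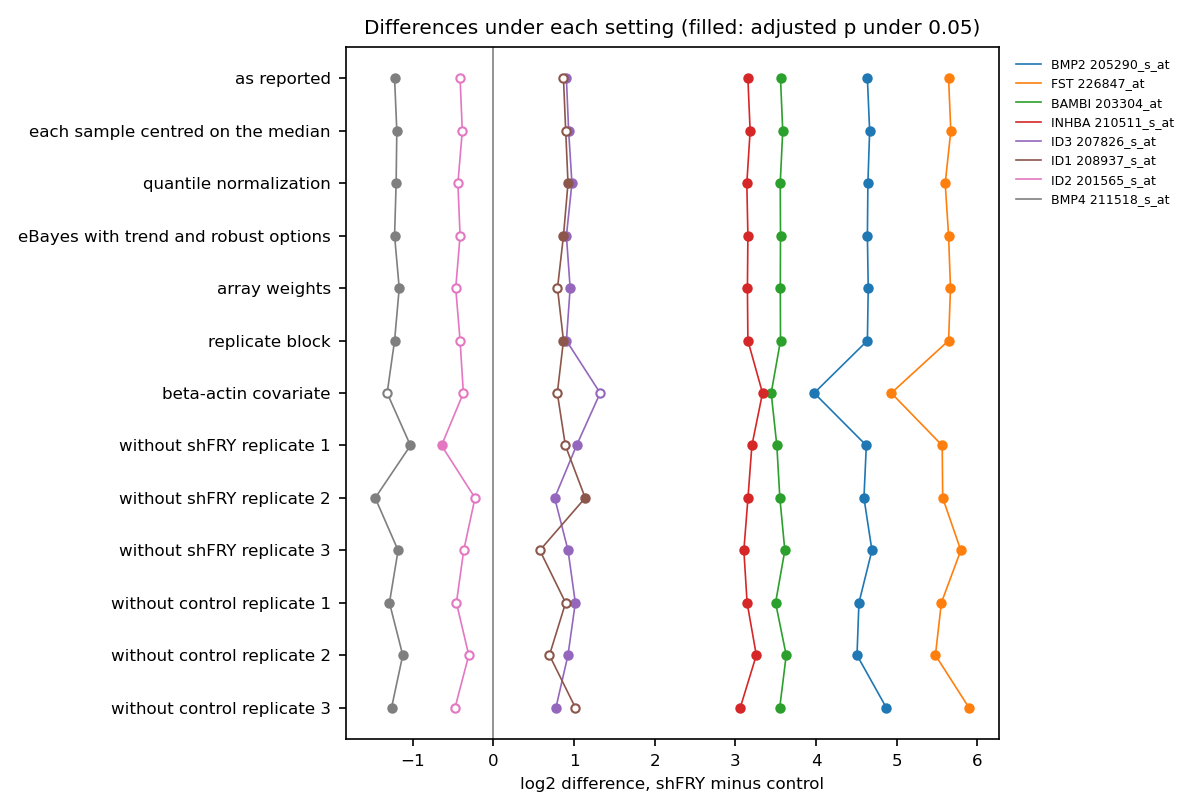
Log2 difference of shFRY minus control (horizontal axis) for 8 member probe sets (coloured lines) under the reported setting and 12 alternatives (rows). Each line is the probe set of its gene with the largest absolute difference. Filled points have a limma adjusted p under 0.05. The lines of BMP2, FST, BAMBI and INHBA stay above 3 throughout, and BMP4 stays below -1. The other INHBA probe sets, not drawn, ranged from 2.38 to 2.94. ID1 does not pass in the reported setting and passes in some of the alternatives.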

How the data were processed

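Per the submitters' processing notes the deposited log2 values come from RMA. Its version was not stated in those notes. Standard RMA subtracts background, quantile-normalizes arrays and compresses fold changes of dim probe sets, so folds from signals near or below the median may be too small. Per the labels' protocols, total RNA (40 ng) from cultures at 70% confluence was amplified, labelled with biotin and put on 1-colour arrays, whose number limits the precision.

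The deposited values were used unchanged. Probe sets were named by a platform annotation, which can be old, with symbols updated by Entrez ID to RefSeq of GRCh38.p14 (41037 of 41091 single-symbol probe sets matched). limma 3.58.1 in R 4.3.3 (lmFit, eBayes, no filter) compared shFRY with control over 54613 probe sets, and over 19775 genes with the brightest probe set standing for each, with Benjamini-Hochberg adjustment over all of them. Values beside a gene without a probe set ID are from the gene fit. Fits were tested on simulated data. Members, role lists and tests were chosen with earlier results of these data known. Named genes are all members and, per role list, up to 3 other called genes with the largest difference, and the 3 nearest profiles of 4 members. Alternatives were median centring, quantile normalization, trend and robust eBayes, a filter on dim probe sets, array weights, the replicate block, a beta-actin covariate, leaving out each sample, averaging the probe sets of a gene, and probe sets other than _x_at and _s_at.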

Additional observations from a re-analysis of the deposited data

How the results depend on the processing

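With the beta-actin 3' minus 5' difference of each sample as a covariate, which leaves fewer residual degrees of freedom, 9 member probe sets passed as higher, against 10 without it. The covariate did not overlap between the groups (2.84 to 2.89 in shFRY, 2.33 to 2.71 in control). A call lost with it therefore cannot separate RNA length from group. With the covariate the member genes called higher numbered 4, against 6 in the reported fit. They also numbered 4 above the median mean and without _x_at and _s_at probe sets. In those settings ID1 and ID3 were not in the gene fit, so their calls were not tested there. With the covariate 0 member probe sets and 0 member genes passed as lower in limma (1 each at an unadjusted p under 0.05, and 1 each without the covariate), and 3 other pathway genes passed as higher and 3 as lower, against 16 and 9 without it. BMP4, the only member called lower, was not tested above the median mean or without _x_at and _s_at probe sets, so that 0 members were called lower in limma there. Leaving out 1 sample at a time gave 10 to 11 member probe sets higher and 1 to 2 lower, 5 to 6 member genes higher and 1 to 2 lower, and 13 to 16 other pathway genes higher and 7 to 8 lower; the second lower call was ID2, without shFRY sample 1. Sign changes were seen only for differences that had not passed, apart from MSX2. The ID2 probe set 201566_x_at went to -0.13 with the beta-actin covariate, to -0.0603 with quantile normalization and ranged from -0.0362 to 0.0699 with 1 sample left out. SMAD6 went to -0.36 at 207069_s_at with the covariate, ranged from -0.0827 to 0.208 at 209887_at with 1 sample left out, and as a gene was at 0.0646 with the mean of its probe sets and at 0.0757 without _x_at and _s_at probe sets, where MSX2 was at 0.11; the causes were not tested.

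The replicate numbers of the titles did not pair the samples: deviations of same-numbered samples from their group means correlated at 0.003, -0.004 and 0.04. With the replicate block 11 member probe sets passed as higher and 1 as lower, ID1 being added (0.87, limma adjusted p = 0.00717). Groups of 3 samples, 1 clone per construct and the dim signals of ID2 and of 3 of the 4 SMAD6 probe sets limit what could be seen.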

Other observations

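Pathway genes outside the naming rule, chosen here after their values were seen, include 5 with small differences that passed. None of the 5 passed with the beta-actin covariate. TWSG1, a secreted modulator of BMP and chordin, had a log2 signal of 8.81, 8.86 and 8.83 in shFRY, against 9.29, 9.35 and 9.32 in control (log2 difference -0.48, limma adjusted p = 0.00437). NBL1, a secreted BMP antagonist of the DAN family, had 6.30, 6.32 and 6.24 in shFRY, against 6.83, 6.57 and 6.79 in control (-0.45, limma adjusted p = 0.0139). The repressor gene SKI had 6.41, 6.41 and 6.63 in shFRY, against 7.48, 6.95 and 6.77 in control (-0.58, limma adjusted p = 0.0414), whereas its relative SKIL was called higher. MSX1, a homeobox gene like MSX2, had 2.39, 2.58 and 2.54 in shFRY, against 3.17, 2.98 and 3.26 in control (-0.63, limma adjusted p = 0.00394). CHRDL2, a chordin-like antagonist, had 2.17, 2.40 and 2.49 in shFRY, against 2.09, 1.85 and 1.95 in control (0.39, limma adjusted p = 0.0440). It was dim, below the median of all values (3.04) in every sample, and the gap between the groups was 0.075.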
